A study of Mus musculus with 2 samples.

Results

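The genes of the proteasome were followed through male meiosis in single-cell transcriptomes of mouse testicular germ cells. The members are all 43 of 31053 genes whose symbols name a subunit of the core particle (Psma and Psmb), of the regulatory particle (Psmc and Psmd) or of a separate activator (Psme), each followed by its number. Psmc3ip, which encodes a recombination cofactor and not a subunit, was left out. The members lie on 16 chromosomes, 42 on autosomes and 1, Psmd10, on the X chromosome.

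The proteasome is the protease that degrades proteins marked with ubiquitin. Its barrel-shaped core is built from α rings at the ends and β rings that hold the active sites inside, and the regulatory particle, with a base of ATPases and a lid, binds ubiquitylated proteins and unfolds them. Some subunits have counterparts made in particular cells. PSMA8 takes the place of PSMA7 in the α ring of male germ cells, PSMB8, PSMB9 and PSMB10 replace the catalytic subunits in immune cells, and the activators PA28 and PA200 can cap the core in place of the regulatory particle. PA200, encoded by Psme4, is known in mouse testis for the degradation of acetylated histones.

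The study compared 1 library labelled Zfp541-/- (8833 annotated cells, 119675250 UMIs, that is, counted mRNA molecules) with 1 wild-type library (8420 annotated cells, 108612781 UMIs), both from adult C57BL/6 testis. ZFP541 is a zinc finger protein made in spermatocytes; the labels give neither the deleted part of the gene nor the number of mice. Tetraploid germ cells were sorted by flow cytometry, although the sample titles say whole testis, and 3′ ends were counted on the 10x Chromium system. The authors' stage names run over differentiated spermatogonia (Diff.Spg1 to Diff.Spg3), preleptotene (pre.L), leptotene (L), zygotene (Z), early, mid and late pachytene (eP, mP, lP), diplotene (D), meiosis I (MI), round spermatids (RS.1 to RS.3) and elongated spermatids (ES).

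The library labelled Zfp541-/- held 9 stages of at least 50 cells, Diff.Spg1 to lP, and the wild-type library held 9, eP to ES, so only the pachytene stages were shared in number. The wild-type spermatids are haploid and lie outside a tetraploid gate. With 1 library per genotype there was no replicate check and no test. Levels are counts per 1000000 UMIs of a stage (CPM), which count molecules and are not divided by gene length. Intervals are 95% counting intervals and leave out variation between mice and preparations. Zfp541 mRNA was not lower in the library labelled Zfp541-/-. It had 81.9 CPM in mP and 70.6 CPM in lP there, against 28.1 and 35.8 CPM in wild type. Only 3′ ends were counted and the deleted part of the gene is not given. These levels therefore neither bear the labels out nor contradict them. Cells of the library labelled Zfp541-/- were deeper, with median UMIs of 18665 in mP and 23690 in lP, against 7945 and 9210 in wild type, and a larger median share of mitochondrial UMIs, 3.08% and 2.22%, against 1.48% and 1.26%. The libraries shared 17 barcodes. The eP clusters, numbers 12 and 16, had the spermatogonium marker Sohlh2 and 0 pachytene markers among their top 10 genes, so they are compared by number. The clusters of mP and lP had 0 markers of any list there.

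The largest differences between the libraries fell on a pair of core subunits. Psma7 (chr2:180036374-180042433, minus strand), the α ring subunit that body cells use, was higher in pachytene cells of the library labelled Zfp541-/-, and Psmb5, which carries the chymotrypsin-like active site of the β ring, was lower. Psma8, the germ cell counterpart of Psma7, was lower there by less than 2-fold. The promoters of Psma7, Psmb5 and, for comparison, of the catalytic subunit Psmb6 and the activator Psme4 are shown because these members carry the differences described below. The sequences are RefSeq's, build GRCm38.p6, 250 bases before to 50 after the start site, and lie at chr2:180042415-180042714 (minus strand, Psma7), chr14:54617946-54618245 (minus strand, Psmb5), chr11:70525107-70525406 (plus strand, Psmb6) and chr11:30771525-30771824 (plus strand, Psme4). Capitals mark matches, on either strand, to 4 short motifs: TGACNNNGC (the core of the antioxidant response element), CCAAT (the CCAAT box), AACNGNC (the MYB core) and CCGGAAG (the ETS core).
Psma7: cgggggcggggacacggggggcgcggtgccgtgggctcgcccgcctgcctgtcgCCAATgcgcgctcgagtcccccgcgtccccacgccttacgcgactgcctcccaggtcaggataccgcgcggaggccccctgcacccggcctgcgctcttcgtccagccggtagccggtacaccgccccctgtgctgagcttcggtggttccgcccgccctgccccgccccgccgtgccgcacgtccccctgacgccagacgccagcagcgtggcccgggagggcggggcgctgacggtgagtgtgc
Psmb5: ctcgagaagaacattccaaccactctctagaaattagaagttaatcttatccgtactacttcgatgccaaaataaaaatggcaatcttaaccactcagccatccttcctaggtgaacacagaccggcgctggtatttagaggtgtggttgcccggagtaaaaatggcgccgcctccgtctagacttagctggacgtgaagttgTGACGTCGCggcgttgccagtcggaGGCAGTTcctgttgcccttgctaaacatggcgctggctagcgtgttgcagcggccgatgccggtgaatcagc
Psmb6: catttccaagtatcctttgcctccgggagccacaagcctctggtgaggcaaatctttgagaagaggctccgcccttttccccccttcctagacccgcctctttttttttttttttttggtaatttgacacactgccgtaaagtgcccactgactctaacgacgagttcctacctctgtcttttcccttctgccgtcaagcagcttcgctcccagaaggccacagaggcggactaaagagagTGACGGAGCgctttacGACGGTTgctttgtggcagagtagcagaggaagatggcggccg
Psme4: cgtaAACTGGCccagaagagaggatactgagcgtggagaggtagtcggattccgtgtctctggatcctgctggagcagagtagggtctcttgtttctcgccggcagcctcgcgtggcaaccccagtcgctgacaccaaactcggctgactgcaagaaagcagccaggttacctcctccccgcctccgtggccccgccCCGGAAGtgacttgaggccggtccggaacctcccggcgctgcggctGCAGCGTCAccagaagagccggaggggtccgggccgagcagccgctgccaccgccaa
The Psma7 window held a CCAAT box, 196 bases before its start site, and no match to the other motifs. Psmb5 and Psmb6 each held TGACNNNGC and AACNGNC, with TGACNNNGC starting 47 bases before the start site in Psmb5 and 9 before it in Psmb6. Psme4 held TGACNNNGC, AACNGNC and CCGGAAG. Promoters were found for 36 of the 43 members, 39 promoters in all, and Psma8 had none. A member counted if any of its promoters matched, while the shares over all promoters count each promoter singly. CCGGAAG stood in 12 of these 36 (33.3%) and in 8.86% of all 32851 promoters of the same length. TGACNNNGC stood in 6 members (16.7%) and in 12.4% of all promoters, AACNGNC in 16 (44.4%) and in 32.8%, and CCAAT in 14 (38.9%) and in 37.4%. A match is a description of letters and does not show that a factor binds.

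Psma7 and Psma8 occupy the same place in the α ring, and their mRNAs changed places along the stages of the library labelled Zfp541-/-. Psma7 was at 533, 505 and 470 CPM in Diff.Spg1, Diff.Spg2 and Diff.Spg3, at 126 CPM in pre.L, at 30.8, 44.1 and 61.3 CPM in L, Z and eP, and then at 239 CPM in mP and 321 CPM in lP. Psma8 was at 48.9, 31.6, 30.7 and 18.7 CPM in the first 4 of these stages, at 88.0, 259 and 590 CPM in L, Z and eP, and at 343 and 252 CPM in mP and lP. Psma7 was thus lowest in L and Psma8 highest in eP, and Psma7 stood above Psma8 again in lP.

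In the wild-type library Psma7 stayed low from eP on. It was at 52.3 CPM in eP, 63.9 in mP, 41.9 in lP, 29.2 in D and 16.2 in MI, and stayed at or under 25.3 CPM in the spermatid stages. Psma8 was at 765, 646, 439, 323 and 202 CPM in eP, mP, lP, D and MI, at 173 and 57.0 CPM in RS.1 and RS.2, and at 24.6 and 14.1 CPM in RS.3 and ES. The few wild-type cells of the first stages ran the same way: Psma7 had 734 CPM (571 to 929) in 39 Diff.Spg3 cells, and Psma8 had 31.9 CPM (6.58 to 93.3) in the same cells and 397 CPM (257 to 585) in 24 Z cells. Elongating spermatid markers summed to 638 CPM in these Diff.Spg3 cells and 555 CPM in these Z cells. In the same stages of the library labelled Zfp541-/- they summed to 0.334 and 1.20 CPM.

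**Figure D1:**
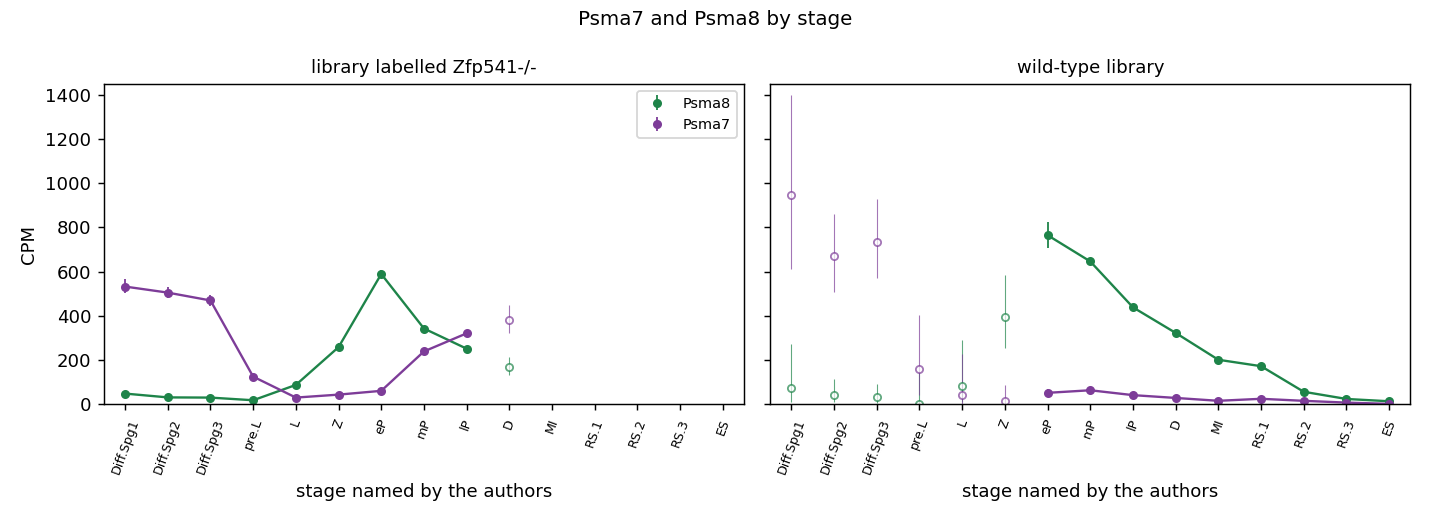
Psma7 (purple) and Psma8 (green) by stage, in CPM, in the library labelled Zfp541-/- (left) and in the wild-type library (right); bars are 95% counting intervals, and open circles are stages of under 50 cells. The lines cross between pre.L and L on the left and again between mP and lP, where Psma7 reaches 321 CPM, while on the right Psma8 stays above Psma7 in every filled stage.

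Psma8 made up 8.41% (6.92 to 10.1) of the Psma7 and Psma8 UMIs in Diff.Spg1 of the library labelled Zfp541-/-, 74.1% in L, 85.4% in Z and 90.6% in eP. The share then was 58.9% (58.3 to 59.5) in mP and 43.9% (43.3 to 44.5) in lP of this library, against 91.0% (90.3 to 91.7) and 91.3% (90.4 to 92.2) in wild type. In wild type it was 91.7% in D and 92.6% in MI and then 87.2%, 78.0% and 75.2% in RS.1, RS.2 and RS.3. Both genes together had 582 CPM in mP and 573 CPM in lP of the library labelled Zfp541-/-, against 710 and 481 CPM in wild type, so the sum differed less than its parts.

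Between the libraries, the log2 ratio of Psma7 was 1.90 (1.79 to 2.02) in mP and 2.94 (2.78 to 3.1) in lP, or 3.74-fold and 7.66-fold. Of all genes at the minimum level, 92.8% had a lower ratio than Psma7 in mP and 94.3% in lP. The difference was present in each cluster of these stages, from 0.98 in cluster 4 to 2.29 in cluster 7 among the mP clusters and from 2.97 to 3.07 among the lP clusters. In the eP clusters the intervals of the Psma7 ratio included 0, with 0.70 (-0.14 to 1.84) in cluster 12 and 0.10 (-0.38 to 0.66) in cluster 16.

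Psma8 had log2 ratios of -0.91 (-0.96 to -0.87) in mP and -0.80 (-0.86 to -0.75) in lP. Its ratio was below 0 in all 7 clusters of these stages, between -1.01 and -0.62. Because the cells of the library labelled Zfp541-/- held more UMIs, the number of Psma8 molecules counted per cell was higher there, with 6.69 in mP and 6.07 in lP, against 5.20 and 4.23 in wild type. Psma7 had 4.67 and 7.74 UMIs per cell there, against 0.515 and 0.404 in wild type, so it was higher on both scales.

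Many cells carried both mRNAs. Of the lP cells, 97.5% in the library labelled Zfp541-/- had UMIs of both genes, against 32.2% in wild type. With every cell thinned to 3000 UMIs, which left out 1 lP cell of the library labelled Zfp541-/- and 2 of wild type, the shares were 29.3% (27.3 to 31.4) against 8.73% (6.89 to 10.9). Psma7 was seen in 1141 of 1944 thinned lP cells of the library labelled Zfp541-/-, against 99 of 825 in wild type, and Psma8 in 50.7%, against 73.8%. For comparison, 11.5% (8.47 to 15.2) of thinned Z cells of the library labelled Zfp541-/- had a Psma7 UMI. There, thinning left out 300 of 673 cells, and the stage and library differ. The interval of the wild-type share of thinned lP cells, 9.86% to 14.4%, includes that value. Free RNA was measured in neither library, so its part in these low levels was not tested. The folds over wild type carry that limit. The 8 elongating spermatid markers were all detected in wild type, with sums of 299 CPM in mP and 234 CPM in lP. In the library labelled Zfp541-/- the sums were 0.102 CPM, with 2 detected, and 0.0853 CPM, with 3 detected. The source of these marker UMIs was not tested. The summed level of 8 spermatogonium markers was 482 CPM in lP of the library labelled Zfp541-/-, with all 8 detected, against 572 CPM in wild type, with Stra8, Dmrt1 and Sohlh1 at 0. In mP it was 242 CPM, with all 8 detected, against 278 CPM in wild type, with Sohlh1 at 0. Dmrtb1 made up most of these sums and was lower in the library labelled Zfp541-/-, and the other 7 markers were higher there in both stages. Without Dmrtb1 the sum was 38.0 CPM in mP and 41.8 CPM in lP of the library labelled Zfp541-/-, against 20.9 and 7.90 CPM in wild type. Kit, a receptor of differentiating spermatogonia, had 2.85 and 9.54 CPM, against 0.206 and 0.125 CPM in wild type. Uchl1, the largest of the 7, had 18.3 CPM in mP and 24.1 CPM in lP, against 17.8 and 7.14 CPM in wild type. The sum of all 8 spermatogonium markers thus ran against Psma7, and the sum without Dmrtb1 ran with it. The part of these markers in the Psma7 difference was not tested.

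The other α subunits form the ends of the core and its gate, and none of them differed by 2-fold. Psma3 came nearest. It had 304 CPM in mP and 230 CPM in lP of the library labelled Zfp541-/-, against 558 and 448 CPM in wild type, with log2 ratios of -0.88 and -0.96. Psma1 and Psma2 had ratios between -0.80 and -0.71 in both stages. Psma4, Psma5 and Psma6 lay between -0.37 and 0.37.

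Psmb5, at chr14:54614119-54618022 on the minus strand, was the member with the lowest ratio in both mP and lP. It had 124 CPM in mP and 52.6 CPM in lP of the library labelled Zfp541-/-, against 531 and 466 CPM in wild type. The log2 ratios were -2.10 (-2.15 to -2.05) and -3.15 (-3.22 to -3.08), or 4.29-fold and 8.87-fold lower. Of all genes at the minimum level, 3.93% had a lower ratio in mP and 3.63% in lP. The ratio was between -2.47 and -1.61 in the mP clusters and between -3.27 and -2.90 in the lP clusters. It was already below 0 in cluster 12, at -0.74 (-0.98 to -0.48), and in cluster 16, at -1.03 (-1.20 to -0.85).

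Before pachytene, Psmb5 in the library labelled Zfp541-/- was at 529, 578 and 390 CPM in the spermatogonium stages, 162 CPM in pre.L, 121 CPM in L, 176 CPM in Z and 296 CPM in eP. It therefore had a second maximum in eP before the low values of mP and lP. In the wild-type library it was at 577 CPM in eP, 531 in mP, 466 in lP, 397 in D and 339 in MI, and then at 302, 221, 72.5 and 17.7 CPM in RS.1, RS.2, RS.3 and ES, a decrease at each step. The UMIs per cell were lower in the deeper library as well, with 2.41 in mP and 1.27 in lP, against 4.27 and 4.50 in wild type. Of the thinned lP cells, 14.7% had a Psmb5 UMI in the library labelled Zfp541-/-, against 74.2% in wild type. A pseudogene, Psmb5-ps, is annotated, and reads could be split between near-identical copies.

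The other catalytic subunits did not move with Psmb5 to the same extent. Psmb6, of the caspase-like site, had 530 CPM in mP and 545 CPM in lP of the library labelled Zfp541-/-, against 830 and 728 CPM in wild type, with ratios of -0.65 and -0.42. Psmb7, of the trypsin-like site, had 225 and 190 CPM, against 233 and 176 CPM in wild type, with ratios of -0.05 and 0.11. Psmb5 therefore made up 14.1% (13.8 to 14.4) of the UMIs of these 3 genes in mP and 6.68% (6.43 to 6.94) in lP of the library labelled Zfp541-/-, against 33.3% (32.6 to 34.1) and 34.0% (33.1 to 34.9) in wild type. Psmb6 and Psmb7 also have annotated pseudogenes. The 4 structural β subunits, Psmb1 to Psmb4, had ratios between -0.51 and 0.16.

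The immune subunits were at their highest in Diff.Spg1 of the library labelled Zfp541-/- and low or absent from then on. Psmb10 (PSMB10 replaces PSMB7) had 167 CPM there, 40.9 and 32.8 CPM in Diff.Spg2 and Diff.Spg3, 9.91 CPM in pre.L and 4.40 CPM in L. In pachytene it had 11.1 CPM in mP and 5.08 CPM in lP, against 15.1 and 9.65 CPM in wild type. Psmb9 (PSMB9 replaces PSMB6) had 0 UMIs in lP of this library and 46 UMIs, or 21.6 CPM, in Diff.Spg1, which makes it at least 338-fold lower in lP when 3 counts are allowed there. Its gene overlaps Tap1 on the opposite strand, and Tap1 had 1 UMI in Diff.Spg1. Psmb8 (PSMB8 replaces PSMB5) had at most 2.82 CPM in any stage of at least 50 cells, and Psmb11, the subunit of the thymus, had at most 1 UMI in any of these stages.

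Together the immune subunits took 0.641% of the catalytic and immune β UMIs in lP and 11.6% (10.5 to 12.7) in Diff.Spg1 of the library labelled Zfp541-/-. Markers of other cell types were read in the same 218 Diff.Spg1 cells. Of 6 macrophage markers, 2 were detected, with 2 UMIs in sum (0.940 CPM) and Lyz2, Adgre1, C1qa and Csf1r at 0. The 3 T cell markers were all detected, with 4 UMIs in sum. Of 6 Sertoli cell markers, 4 were detected, with 42 UMIs in sum, and the 3 endothelial markers were all detected, with 10 UMIs. The part of such cells in the immune subunit levels was not tested. Irf1, a transcription factor of the interferon response, had 0.466 CPM in eP and 82.7 CPM in these Diff.Spg1 cells.

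The paired PA28 subunits followed the same course. Psme1 had 333 CPM in Diff.Spg1, 209 and 112 CPM in Diff.Spg2 and Diff.Spg3, 44.6 CPM in pre.L and 1.32 CPM in L of the library labelled Zfp541-/-. Psme2 had 345, 183, 110, 27.5 and 7.92 CPM in the same 5 stages. In 28 wild-type Diff.Spg2 cells, Psme1 had 212 CPM (127 to 331) and Psme2 had 201 CPM (119 to 317), so both libraries held these mRNAs in spermatogonia. In mP and lP neither gene passed 2.26 CPM in either library. Psme2 has a near copy, Psme2b, outside the naming rule, and its counts are uncertain to that extent.

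**Figure D2:**
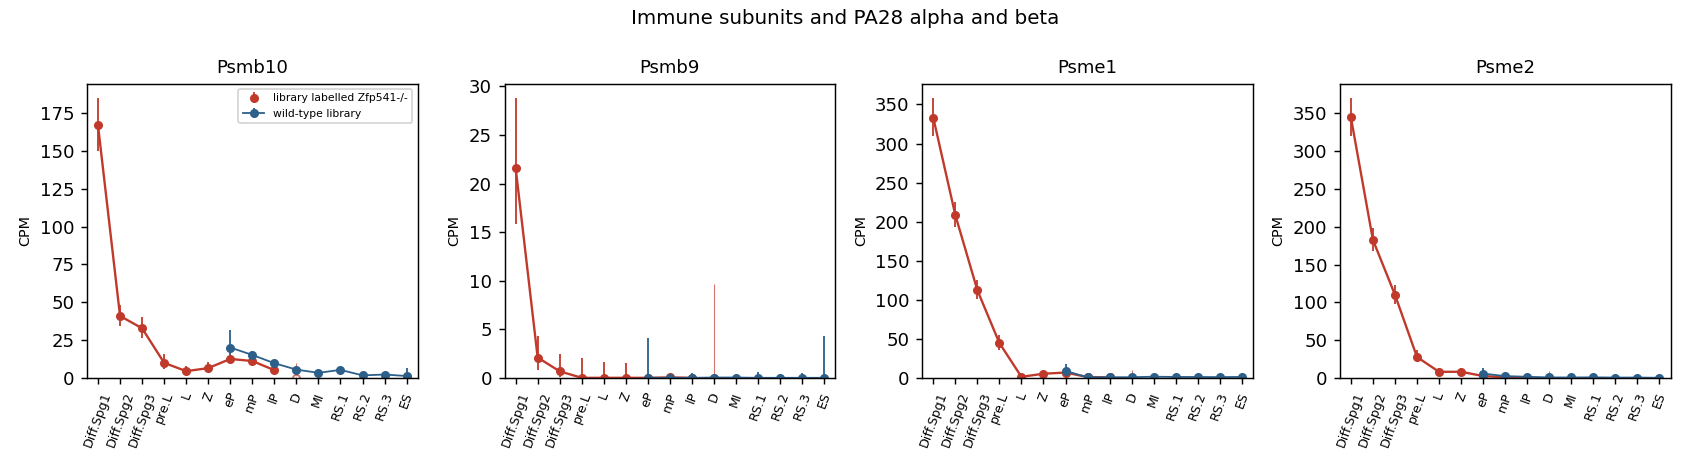
Psmb10, Psmb9, Psme1 and Psme2 by stage, in CPM, with 95% counting intervals; the red line is the library labelled Zfp541-/-, with open circles for its stage of under 50 cells, and the blue line is the wild-type library in its stages of at least 50 cells. All 4 genes are highest in Diff.Spg1, where Psmb10 has 167 CPM and Psme1 has 333 CPM, and lie near 0 in late pachytene.

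Psme4 ran against PA28. In the library labelled Zfp541-/- it had 37.1 CPM in Diff.Spg1, 45.4 and 71.5 CPM in Diff.Spg2 and Diff.Spg3, 72.7 CPM in pre.L, 104 CPM in L and 103 CPM in Z, then 95.7 CPM in eP, 75.1 CPM in mP and 77.7 CPM in lP. In the wild-type library it had 82.3 CPM in eP, 119 in mP, 137 in lP, 123 in D and 142 in MI, and 93.6, 94.5, 62.4 and 43.6 CPM in RS.1, RS.2, RS.3 and ES. Its course thus parted between the libraries after eP. The ratio was -0.66 (-0.76 to -0.56) in mP and -0.82 (-0.92 to -0.72) in lP, under 2-fold; with the lP clusters given equal weight it was -1.12, past 2-fold. In clusters 12 and 16 the intervals included 0. Psme4 made up 77.0% of the UMIs of the 4 activator genes in lP and 4.54% in Diff.Spg1 of the library labelled Zfp541-/-, and 92.1% in MI and 86.3% in lP of wild type.

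Psme3 encodes the PA28 subunit of the nucleus. It had 103, 140 and 99.6 CPM in the spermatogonium stages of the library labelled Zfp541-/-, 51.5 CPM in eP, 26.9 CPM in mP and 22.3 CPM in lP. In wild type it had 24.5 CPM in mP and 19.6 CPM in lP, and the intervals of the ratio included 0 in both stages. Its wild-type level was 10.3 CPM in MI, 11.3 and 12.3 CPM in RS.1 and RS.2, 69.9 CPM in RS.3 and 50.6 CPM in ES. Psme4 accordingly made up 46.7% of the activator UMIs in RS.3, and 45.7% (34.6 to 57.1) in ES, its lowest shares over the wild-type stages of at least 50 cells. In the 39 wild-type Diff.Spg3 cells the share was 10.3% (2.19 to 27.4).

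The base ATPases unfold the substrate and thread it into the core, and most of their genes had ratios above 0 in mP and lP, all under 2-fold. Psmc3 had 822 CPM in mP and 991 CPM in lP of the library labelled Zfp541-/-, against 532 and 633 CPM in wild type, with ratios of 0.63 (0.59 to 0.67) and 0.65 (0.60 to 0.69). Psmc2 had 413 and 459 CPM, against 268 and 295 CPM in wild type, with ratios of 0.62 and 0.64. Of the 6 ATPase genes, 5 had ratios above 0 in each stage, Psmc4 being the exception, while 57.3% of all genes at the minimum had a ratio above 0 in mP and 55.3% in lP. The mP ratio of Psmc5 fell below 0 under median-of-ratios scaling. In the eP clusters ratios above 0 were found for 3 of the 6 in cluster 12 and 2 of the 6 in cluster 16, against 55.2% and 62.7% of all genes. Psmc3 overlaps Slc39a13 on the opposite strand.

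Among the other base subunits, Psmd1, a scaffold of the base, had ratios of 0.45 and 0.58, while Psmd2, also a scaffold, and Psmd4, a ubiquitin receptor, lay between -0.11 and 0.11. The 8 lid genes ranged from -0.63 to 0.46 in mP and from -0.39 to 0.52 in lP. Psmd14, which encodes the enzyme that removes ubiquitin chains from substrates, had ratios of -0.12 in mP and 0.22 in lP. Psmd9, a chaperone of base assembly, had 78.0 and 72.0 CPM, against 135 and 133 CPM in wild type, with ratios of -0.79 and -0.89.

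In sum, all members had 7941 CPM in mP and 7832 CPM in lP of the library labelled Zfp541-/-, against 9104 and 8101 CPM in wild type. The core took 47.1% and 42.9% of these UMIs, against 57.5% and 52.1% in wild type. The Psmc and Psmd genes took 51.6% and 55.8%, against 40.9% and 45.9%. They include the assembly chaperones Psmd5, Psmd9 and Psmd10, with 1.21% of the member UMIs in mP of the library labelled Zfp541-/-. These sums rest on molecules at 3′ ends and do not measure assembled particles.

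Counted over the members, 37 reached 10 CPM in the higher library in mP, and 1 (Psma7) was at least 2-fold higher and 1 (Psmb5) at least 2-fold lower in the library labelled Zfp541-/-. Over all 7701 genes at that level, 15.0% were 2-fold higher and 10.6% 2-fold lower, beside 2.70% of the members each way. In lP, 36 members reached the minimum, again with 1 (Psma7) higher and 1 (Psmb5) lower, against 17.4% and 14.3% of 7635 genes. The median ratio over these members was -0.12 in mP and -0.04 in lP, beside 0.15 and 0.11 over all genes. The members under the minimum were Psmb8, Psmb9, Psmb11, Psmd10, Psme1 and Psme2 in mP, with Psmb10 in addition in lP. Median-of-ratios scaling lowers every log2 ratio by 0.15 in mP and 0.11 in lP. Psma8, at -1.06, and Psma3, at -1.02, then pass 2-fold in mP, as does Psma3, at -1.07, in lP. The same scaling takes 6 ratios below 0 in mP, those of Psma6, Psmb4, Psmc5, Psmd2, Psmd8 and Psme3, which lay between 0.02 and 0.14, and 1 in lP, that of Psmd8, at 0.05.

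**Figure D3:**
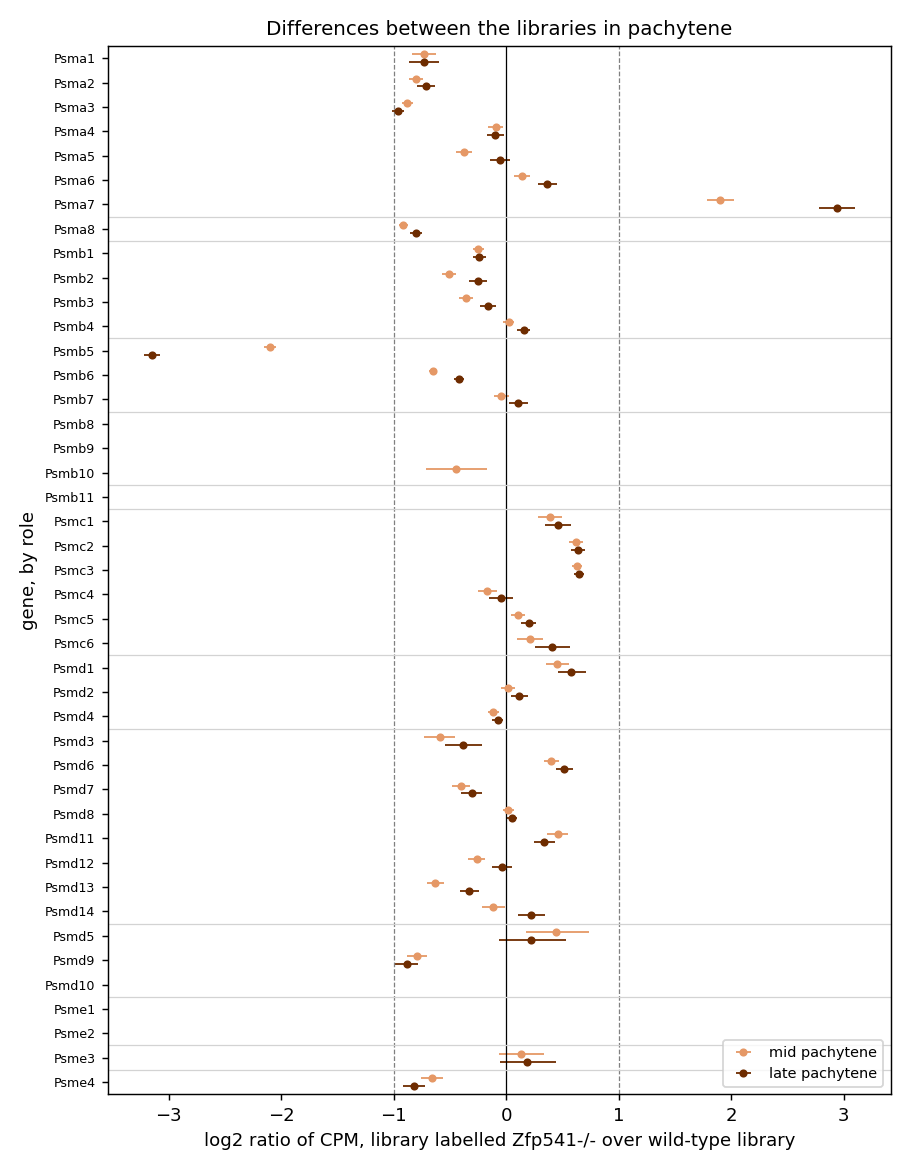
Log2 ratio of CPM, library labelled Zfp541-/- over wild-type library, for the members that reached 10 CPM, in mid pachytene (light) and late pachytene (dark), with 95% counting intervals; dashed lines mark 2-fold. Psma7 lies alone to the right, at 1.90 and 2.94, and Psmb5 alone to the left, at -2.10 and -3.15.

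In each eP cluster, 28 of the 37 members at the minimum had ratios below 0 and 9 (24.3%) above 0. Of all genes, 55.2% had ratios above 0 in cluster 12 and 62.7% in cluster 16. Many of the members' intervals included 0, such as those of Psma8 in cluster 12 and Psmc2 in cluster 16. Of the 8 lid genes, 2 had an interval below 0 in cluster 12 and 4 in cluster 16. All 4 structural β genes had one below 0 in both clusters. In cluster 12, 0 were 2-fold higher and 2 lower, against 14.4% and 8.77% of all genes. In cluster 16, 1 was 2-fold higher and 3 lower, against 20.4% and 8.7%. The medians were -0.31 and -0.35, beside 0.10 and 0.28 over all genes. Psmd13, a lid subunit that overlaps Sirt3 on the opposite strand, was the lowest in both. It had 108 CPM in cluster 12 and 103 CPM in cluster 16 of the library labelled Zfp541-/-, against 268 and 218 CPM in wild type, ratios of -1.32 (-1.65 to -0.95) and -1.09 (-1.37 to -0.79). Psmb6 was the other member 2-fold lower in both, at -1.11 and -1.02. Psmd5, a chaperone of base assembly, was the 1 member higher, at 1.00 in cluster 16, with an interval (-0.16 to 2.80) that includes 0. The library labelled Zfp541-/- gave 713 cells to cluster 12 and 451 to cluster 16, against 75 and 155 in wild type, and median-of-ratios scaling lowers the ratios in cluster 16 by 0.27, which takes those of Psma7, Psmc1, Psmd14 and Psme3 below 0. In cluster 12 it takes those of Psmd5 and Psme4 below 0.

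**Figure D4:**
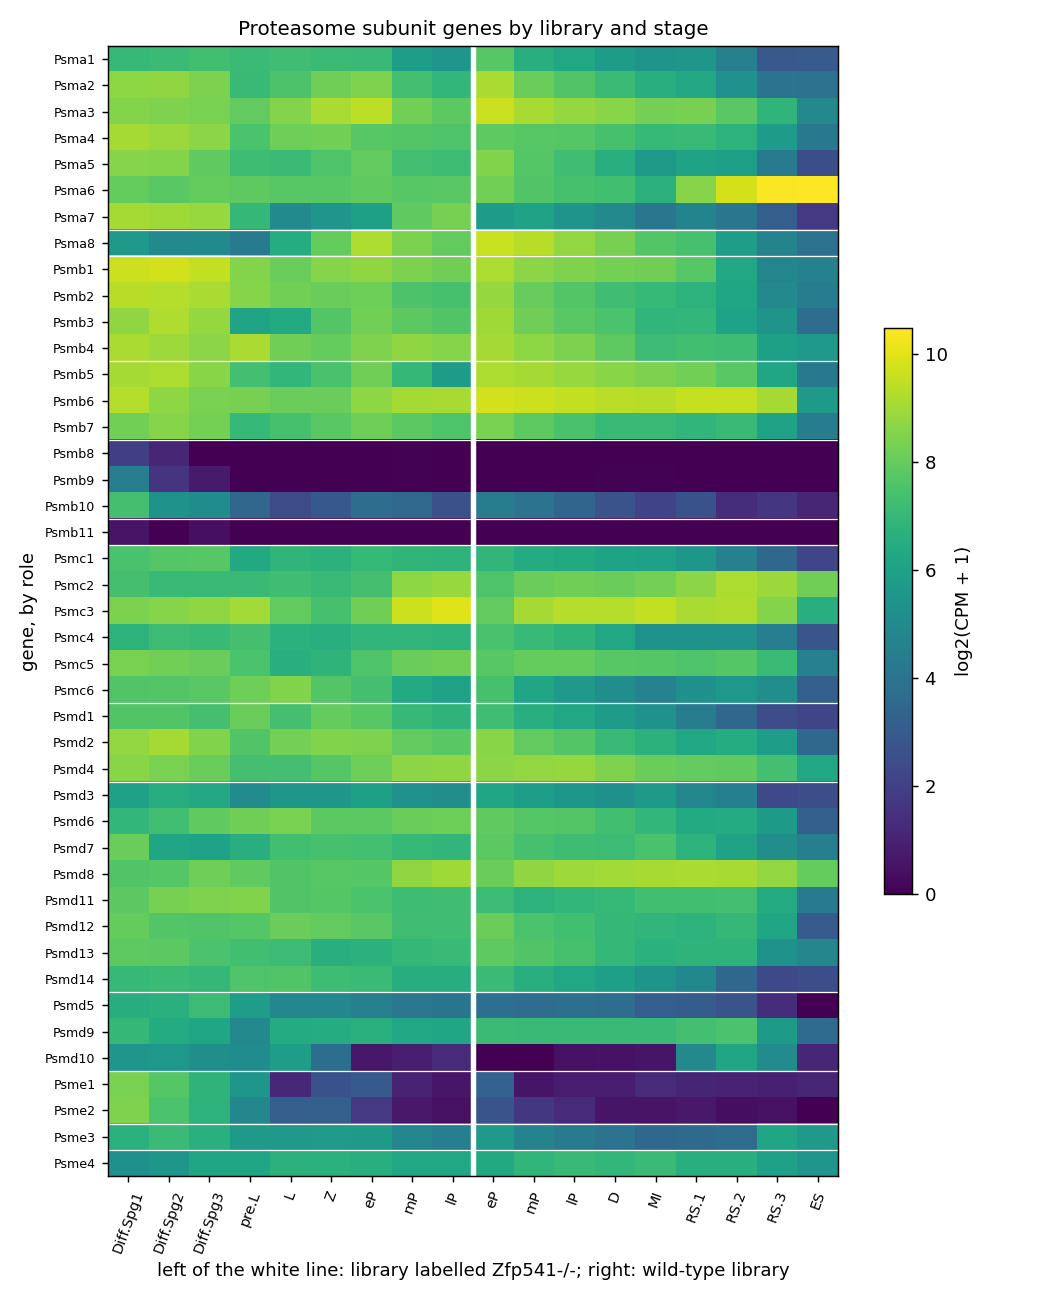
All 43 members (rows, by role) in the 9 stages of at least 50 cells of the library labelled Zfp541-/- (left of the white line) and the 9 of the wild-type library (right), coloured by log2(CPM + 1). The rows of Psmb8, Psmb9 and Psmb11 are dark almost throughout, Psma6 is brightest in RS.3 and ES, and Psmd10 is dark from eP to MI.

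Across stages of the library labelled Zfp541-/-, 41 members reached 10 CPM in lP or Diff.Spg1; 6 were 2-fold higher in lP and 17 lower, against 24.7% and 43.2% of all genes. The higher ones were Psma8, Psmc3, Psmc2, Psmd8, Psmd6 and Psme4, with log2 ratios from 2.36 for Psma8 to 1.06 for Psme4. Psma8 had 252 CPM in lP and 48.9 CPM in Diff.Spg1. Psmd6 and Psmd8, both lid subunits, had ratios of 1.24 and 1.38. The lowest, beside Psmb9, were Psme2 at -9.77 and Psme1 at -9.26. Median-of-ratios scaling raises these ratios by 0.61, which leaves 6 members higher and 11 lower and turns 7 ratios above 0, those of Psma6, Psmb4, Psmb6, Psmc4, Psmc5, Psmd11 and Psmd14, which lay between -0.58 and -0.02. By level, 27 of the 43 members were highest in 1 of the 3 spermatogonium stages of this library. They include Psmb8 and Psmb11, whose highest levels were only 2.82 and 0.470 CPM. The share of all genes highest in these stages was not computed.

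In wild type, eP, the first stage with at least 50 cells, was listed as the highest stage of 29 of the 43 members. Of these, Psmb8 and Psmb11 had 0 CPM in every wild-type stage of that size, so they have no maximum. The share of all genes highest in eP was not computed. The sum over members was 11148 CPM in eP, 9104 in mP, 8101 in lP, 6895 in D, 6183 in MI, 6139 in RS.1, 6254 in RS.2, 4682 in RS.3 and 2696 in ES. In MI over mP, 37 members reached the minimum, 0 were 2-fold higher and 15 lower, against 16.1% and 33.3% of all genes. Psmb10, Psma5 and Psma7 had the lowest ratios, at -2.20, -2.12 and -1.98, and Psmd11, Psmc3 and Psmd8 the highest, at 0.51, 0.47 and 0.38. Median-of-ratios scaling raises these ratios by 0.43 and leaves 8 members 2-fold lower and 0 higher; 5 ratios turn above 0, those of Psmb1, Psmb6, Psmc5, Psmd3 and Psmd9.

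**Figure D5:**
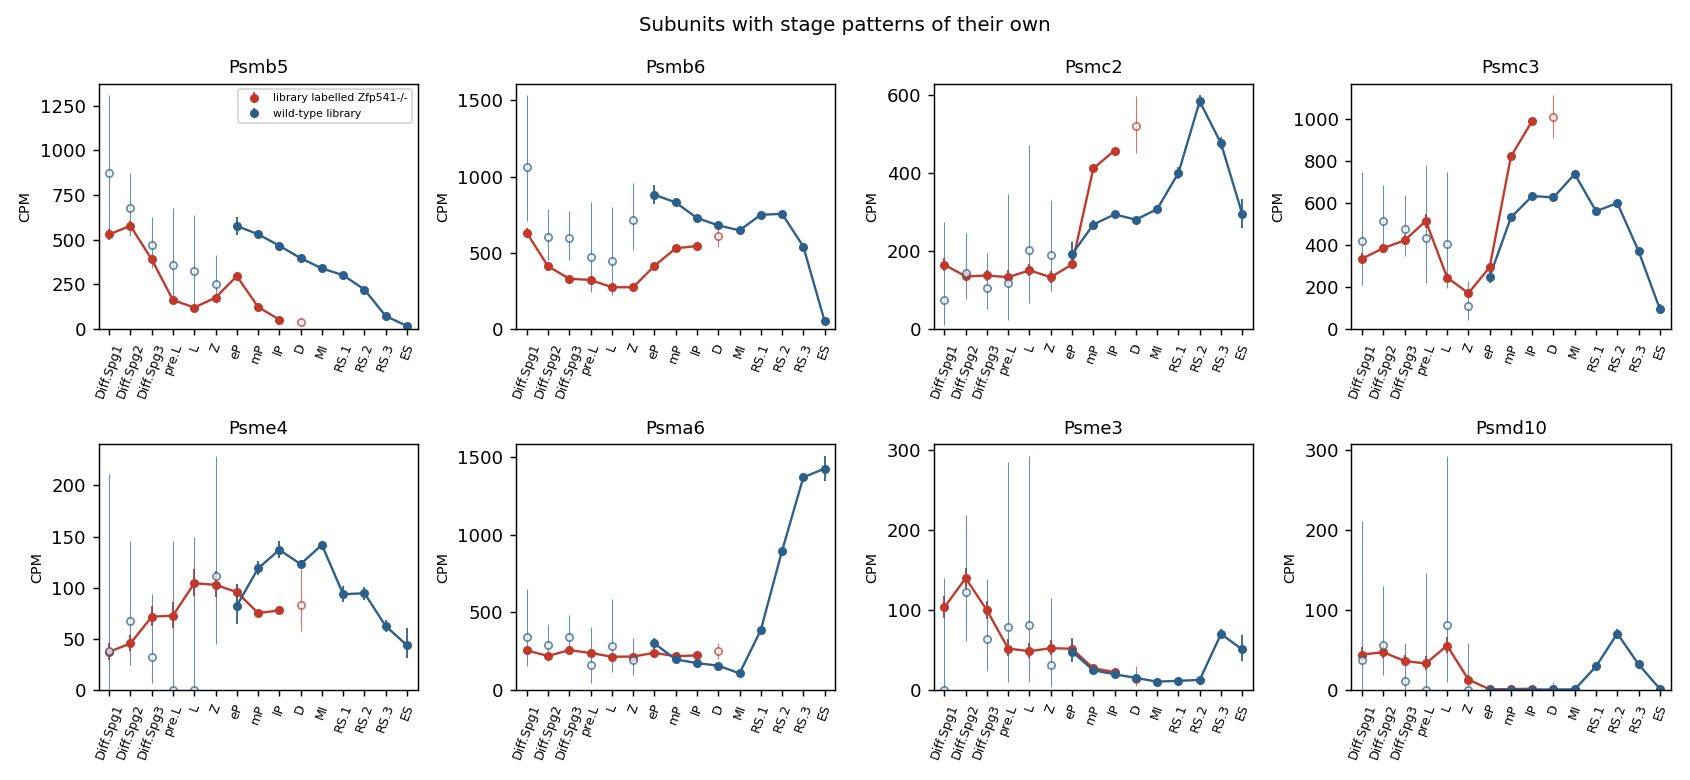
8 members by stage, in CPM, with 95% counting intervals, in the library labelled Zfp541-/- (red) and the wild-type library (blue); open circles are stages of under 50 cells. Psmb5 is lower and Psmc3 and Psmc2 are higher in mid and late pachytene of the library labelled Zfp541-/-, and Psma6, Psme3 and Psmd10 have maxima among the wild-type spermatids.

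The spermatid stages held exceptions to the decline. In RS.3 over MI, 36 members reached the minimum, 3 were 2-fold higher and 21 lower, against 32.6% and 45.6% of all genes. Psma6, an α ring subunit, had 106 CPM in MI, 385 in RS.1, 897 in RS.2, 1371 in RS.3 and 1428 in ES, and its ratio in RS.3 over MI was 3.69 (3.64 to 3.75). It was the one member highest in ES. Psme3 had a ratio of 2.77 (2.57 to 2.97). Psmc2 and Psmd8 kept 477 and 440 CPM in RS.3, while Psmd3, a lid subunit, Psmb1 and Psmd14 had the lowest ratios, at -3.64, -3.47 and -3.36. Median-of-ratios scaling raises these ratios by 0.82, which gives 5 members higher and 11 lower and turns 5 ratios above 0, those of Psmb6, Psmc5, Psmd4, Psmd8 and Psmd12, which lay between -0.78 and -0.26.

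Psmd10 encodes gankyrin, a chaperone of base assembly, and is the one member on the X chromosome (X:140948429-140956728), whose genes are as a rule silenced in pachytene. In the library labelled Zfp541-/- it had 44.2, 47.2 and 36.1 CPM in the spermatogonium stages, 33.0 CPM in pre.L, 55.4 CPM in L and 12.8 CPM in Z. It then had 0.583 CPM in eP, 0.861 CPM in mP and 1.43 CPM in lP. In wild type it had 0 UMIs in eP and in mP, which allows up to 3.34 and 0.309 CPM, 0.376 CPM in lP and 0.50 CPM in MI. It returned with 29.5, 70.5 and 31.9 CPM in RS.1, RS.2 and RS.3, a ratio of 5.96 (5.29 to 6.80) in RS.3 over MI. The library labelled Zfp541-/- held no spermatid stage, so its return could not be followed there.

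In ES over RS.3, 31 members reached the minimum, 0 were 2-fold higher and 19 lower, against 6.63% and 54.8% of all genes. Psmd10, Psmb6 and Psmd12, a lid subunit, had the lowest ratios, at -4.18, -3.37 and -3.20. Beside these, 8 elongating spermatid markers such as the protamines took 339440 CPM in ES and 72712 CPM in RS.3, and CPM is relative to all UMIs. Median-of-ratios scaling raises the ratios by 1.10, which gives 2 members higher and 7 lower, and turns 12 ratios above 0, those of Psma2, Psma8, Psmb1, Psmb2, Psmb4, Psmc2, Psmd4, Psmd7, Psmd8, Psmd13, Psme3 and Psme4, which lay between -1.07 and -0.04. With 111 cells and 2290 member UMIs in ES, many intervals there were wide.

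Other genes of the pathway were read in mP and lP. Of 21 listed assembly and associated factors, 18 were in the table and at the minimum in both stages. In mP 1 was 2-fold higher and 0 lower, against 15.0% and 10.6% of all genes, and in lP 2 were higher and 0 lower, against 17.4% and 14.3%. AI314180, which encodes the ECM29 adaptor of the proteasome, had 101 CPM in mP and 108 CPM in lP of the library labelled Zfp541-/-, against 24.7 and 20.3 CPM in wild type, ratios of 2.04 (1.85 to 2.23) and 2.41 (2.19 to 2.65). Ube3c, a ubiquitin ligase that acts at the proteasome, had 52.0 CPM in lP, against 25.6 CPM in wild type, a ratio of 1.02. The medians over this list were 0.00 in mP and -0.07 in lP. Of 5 regulators of proteasome genes, which include Nfe2l1 and Mybl1, 4 reached the minimum in each stage and 0 of these differed by 2-fold. The fifth, Nfe2l2, which encodes a transcription factor of the antioxidant response, lay under the minimum and is named for its values. It had 301 UMIs (6.17 CPM) in mP of the library labelled Zfp541-/-, against 1 UMI (0.103 CPM) in wild type, a ratio of 5.32 (3.42 to 11.2). In lP it had 184 UMIs (3.93 CPM), against 0 UMIs in wild type, at least 10.4-fold higher when 3 counts are allowed there.

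Of 9 antigen presentation and interferon genes, 3 reached the minimum in mP and lP. B2m, the light chain of the class I complex that displays peptides made by the proteasome, had 58.6 CPM in mP and 60.6 CPM in lP of the library labelled Zfp541-/-, against 8.85 and 6.77 CPM in wild type, ratios of 2.72 (2.42 to 3.05) and 3.15 (2.77 to 3.58). H2-K1, a class I heavy chain, ran the other way, with 24.8 and 21.8 CPM, against 47.7 and 59.3 CPM in wild type, ratios of -0.94 and -1.45. H2-D1, also a class I heavy chain, lay under the minimum and ran with B2m. It had 3.83 and 1.83 CPM, against 1.85 and 0.251 CPM in wild type. Its ratios were 1.01 (0.35 to 1.84) and 2.56 (0.98 to 5.94). Macrophage markers summed to 1.33 CPM in mP and 1.02 CPM in lP of the library labelled Zfp541-/-, with Adgre1 at 0 in mP and 0 of the 6 at 0 in lP, against 1.54 and 1.75 CPM in wild type, with Lyz2, Adgre1, C1qa and Csf1r at 0 in mP and C1qa in lP. Their part in the B2m difference was not tested.

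Over the 18 groups of library and stage with at least 50 cells, the genes whose log2(CPM + 1) ran most like that of Psma8, among genes that reach 50 CPM in any group, were Cyct (Pearson's r 0.97), which encodes testis cytochrome c, Pomt1 (0.97), Cers3 (0.96), 1700102P08Rik (0.96) and Ppp1r35 (0.95). Those most like Psme4 were Chmp2b (0.92), Stx18 (0.90), Mydgf (0.90), Stk16 (0.90) and Tcta (0.89). The groups share libraries and are a description of 18 points, with no test.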

How the data were processed

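UMI counts per gene and cell were taken as deposited, 1 matrix of raw counts per library; the submitters' processing notes name mm10, Seurat 3.2.0 and Cell Ranger 3.1.0. The deposited cell table gives, per the file headers, each annotated cell's UMI count, its percent of mitochondrial UMIs, cluster and stage; its totals equalled those of the matrices in all 8833 and 8420 annotated cells. A merged matrix was not used. No source used here says how doublets were treated.

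The members, the lists of roles, pathway genes and markers, and the comparisons were chosen with earlier results of these data known. Values are given in full for Psma7, Psma8, Psmb5 to Psmb10, Psme1 to Psme4 and the 3 members of largest log2 ratio each way in each comparison; other pathway genes are named where they passed 2-fold in mP or lP. A few more members are named for their role or their pattern over stages, after their values were seen.

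UMIs of each gene were added up within a stage of a library. Ratios add 0.5 counts to each sum, and a gene counts as 2-fold different if it also reaches 10 CPM in the higher group. Intervals are exact (Poisson for levels, Clopper-Pearson for shares, conditional binomial for ratios) at 95%; UMIs are counted molecules. Both libraries were handled alike, and the ratio script was tested on simulated data. Whether counting used the strand is not given; Psma2, Psma4, Psmb7, Psmb9, Psmc3, Psmd1, Psmd5, Psmd9, Psmd13 and Psme1 overlap other coding genes in GENCODE M21, where all 43 members were placed. Python 3.11.15, numpy 2.4.6, scipy 1.17.1 and pandas 2.3.3 were used. One of the listed gene groups is not reported here.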

Additional observations from a re-analysis of the deposited data

How the results depend on the processing

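Between the libraries, median-of-ratios scaling changed the sign of 6 member ratios in mP, 2 of them (Psma6 and Psmc5) with intervals that exclude 0, of 1 in lP (Psmd8, interval above 0), and of 2 in cluster 12 and 4 in cluster 16, whose intervals include 0. Between stages it changed the sign of 7 in lP over Diff.Spg1, 5 in MI over mP, 5 in RS.3 over MI and 12 in ES over RS.3. The other settings were run on the members named by rule; among these, Psma7 in cluster 12, Psme3 in both clusters and Psme4 in both clusters changed sign between the libraries. Of 388 values of these members under all alternatives, 288 stayed within their counting interval and 100 moved beyond it. The log2 ratio of Psma7 ranged from 1.76 to 1.93 in mP and from 2.83 to 3.01 in lP, and that of Psmb5 from -2.25 to -1.97 and from -3.25 to -3.14. Median-of-ratios scaling gave 3 members 2-fold lower in mP (median -0.26) and 2 in lP (median -0.15). In cluster 16 it gave 7 lower, 0 higher and a median of -0.62. Between stages it gave 11 lower for lP over Diff.Spg1, 8 for MI over mP, 11 (and 5 higher) for RS.3 over MI, and 7 (and 2 higher) for ES over RS.3. With no minimum level, 2 members were higher and 3 lower in mP, 2 and 5 in lP, and 6 and 8 were lower in clusters 12 and 16. With clusters at equal weight 2 members were lower in lP. Thinned cells gave 1 lower in cluster 12, and leaving mitochondrial genes out of the total gave 1 lower in cluster 16. A minimum of 50 CPM or an offset of 2 counts left 0 higher in cluster 16. As a mean over cells, the Psma8 share in mP of the library labelled Zfp541-/- was 60.2%. Apart from the shift that scaling itself makes, the cause of these moves was not tested. No paired analysis was possible because each genotype has 1 library and the labels carry no replicate numbers; for the same reason no library could be left out. Variation between mice cannot be told apart from the genotype, and depth limits the wild-type stages before eP, with 8 to 39 cells.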
